A study of Mus musculus with 11 samples.

Results

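Genes that are recurrently mutated, deleted or silenced in gastric cancer were followed through peak lists of 2 histone marks in mouse stomach glands. The set holds 8 genes chosen by name from 21883 protein-coding genes: Cdh1, Ctnnb1, Rhoa, Apc, Smad4, Pik3ca, Akt1 and Runx3. For each gene, every peak that touched the gene body or the 50 kb on either side was collected from all 11 libraries, on the mouse build GRCm38 (mm10). A peak within 1 kb of one of the gene's own starts was called an own-promoter peak, a peak within 1 kb of the start of a neighbour was kept apart, and every other peak was called distal. The genes were chosen by name, with earlier results of these libraries known.

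Acetylation of lysine 27 of histone H3 (H3K27ac) marks active promoters and enhancers, and trimethylation of lysine 4 (H3K4me3) marks promoters. Cdh1 encodes E-cadherin, which holds epithelial cells together and binds β-catenin, the product of Ctnnb1. Apc is a scaffold of the complex that sends β-catenin to degradation, Rhoa is a small GTPase that controls the actin skeleton, and Smad4 carries TGF-β and BMP signals into the nucleus. Pik3ca encodes the catalytic subunit of a PI3 kinase, Akt1 the kinase that acts downstream of it, and Runx3 a transcription factor that is often silenced in gastric tumours.

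Libraries came from stomach glands of wild-type mice and of 3 engineered genotypes. All engineered mice carried Atp4bCre, a Cre recombinase driven from a gene of parietal cells, and Rosa26NICD, an allele that supplies the active intracellular part of Notch once Cre has acted. The genotypes were flox/flox (Arid1aflox/flox on that background), flox/+ (Arid1aflox/+ on that background), NICD (that background alone) and wild-type, with 2 H3K27ac libraries each. The H3K4me3 mark was read in 1 library each labelled Arid1a-floxed, NICD and wild-type, and the title and genotype of the floxed one disagree on whether 1 or both alleles were floxed. Arid1a encodes a DNA-binding subunit of the BAF chromatin remodelling complex, and the series title names its dosage as the subject. Ages and sexes are not given in the sources used here. Fixed epithelial pellets were pooled before immunoprecipitation, so whether the libraries of a genotype came from separate animals is unknown, and a p-value measures only the spread between these libraries. The glands are a mixture of cells, in which fewer cells of a type and less of a mark per cell cannot be told apart.

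The lists differed in length, which bears on every count below. H3K27ac lists held 15362 and 14373 peaks in flox/flox, 5165 and 7602 in flox/+, 41405 and 25442 in NICD, with 20590 and 18360 in wild-type. Between 7.96 M and 18.3 M tags lay behind each scored H3K27ac list, and no depth is stated for the flox/flox lists. NICD replicate 2 had the lowest depth and a redundant rate of 0.52. Genotype and list length cannot be told apart in these data, and absence from a list does not show absence of the mark. Of 7 epithelial markers, 6 and 5 had an H3K27ac promoter peak in flox/flox, 3 and 2 in flox/+, 7 and 7 in NICD, with 5 and 5 in wild-type. Of 5 parietal markers, 0 and 0 were called in flox/flox, 1 and 0 in flox/+, 0 and 0 in NICD, with 3 and 2 in wild-type. Atp4b and Hrh2 were called in both wild-type libraries and Cblif in replicate 1 alone. Cblif is the newer symbol of Gif, a chief cell marker that went unmatched under its old name. Pit cell markers were called at 2 and 0 of 4 promoters in flox/flox, 1 and 0 in flox/+, 3 and 1 in NICD, with 2 and 3 in wild-type. Chief cell markers were called at 0 and 0 of 3 matched promoters in flox/flox, 0 and 0 in flox/+, 2 and 2 in NICD, with 1 and 1 in wild-type. Leukocyte markers were called at 0 to 2 of 8 promoters in every H3K27ac library and fibroblast markers at 0 to 1 of 5, with muscle markers at 0 to 1 of 4 and endothelial markers at 0 of 4.

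The 5 promoters below are printed to describe their letters. Cdh1, whose promoter was not called in flox/+, had no RefSeq promoter and is not printed. They include a Rhoa promoter that overlapped an H3K27ac peak in all 8 libraries and the Ctnnb1 and Akt1 promoters, which were called unevenly. The others belong to both starts of Runx3, which had no H3K27ac promoter peak. Each is the 250 bases before a RefSeq gene start on GRCm38.p6, printed 5′ to 3′ on the gene's strand. Capitals mark exact matches, on either strand, to 5 motifs: the RBPJ motif of Notch signalling is TGGGAA, the RUNX motif is TGTGGT, the CCAAT box is named by its letters, the GC box is GGGCGG and the E-box searched is CAGGTG. Neighbouring GC boxes can overlap.
Rhoa, chr9:108306547-108306796, plus strand: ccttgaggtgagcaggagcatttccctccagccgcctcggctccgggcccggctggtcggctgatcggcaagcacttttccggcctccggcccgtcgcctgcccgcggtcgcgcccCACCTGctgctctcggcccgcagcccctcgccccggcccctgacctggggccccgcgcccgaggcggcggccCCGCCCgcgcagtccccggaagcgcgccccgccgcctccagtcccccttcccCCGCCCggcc
Ctnnb1, chr9:120933328-120933577, plus strand: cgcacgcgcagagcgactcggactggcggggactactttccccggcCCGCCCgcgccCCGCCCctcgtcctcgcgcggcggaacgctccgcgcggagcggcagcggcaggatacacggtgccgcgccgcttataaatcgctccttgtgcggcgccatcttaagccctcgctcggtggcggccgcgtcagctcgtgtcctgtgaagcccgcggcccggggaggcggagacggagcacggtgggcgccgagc
Akt1, chr12:112674277-112674526, minus strand: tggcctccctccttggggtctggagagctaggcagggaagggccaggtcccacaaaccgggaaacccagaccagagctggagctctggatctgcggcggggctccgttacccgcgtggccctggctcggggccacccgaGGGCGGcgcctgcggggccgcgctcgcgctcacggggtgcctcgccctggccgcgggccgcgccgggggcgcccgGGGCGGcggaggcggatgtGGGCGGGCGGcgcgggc
Runx3 distal promoter, chr4:135120395-135120644, plus strand: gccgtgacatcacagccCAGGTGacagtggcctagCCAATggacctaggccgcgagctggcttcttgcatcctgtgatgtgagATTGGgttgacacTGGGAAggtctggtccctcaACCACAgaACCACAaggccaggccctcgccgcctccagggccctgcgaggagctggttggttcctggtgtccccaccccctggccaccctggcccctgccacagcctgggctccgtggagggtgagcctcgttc
Runx3 proximal promoter, chr4:135152295-135152544, plus strand: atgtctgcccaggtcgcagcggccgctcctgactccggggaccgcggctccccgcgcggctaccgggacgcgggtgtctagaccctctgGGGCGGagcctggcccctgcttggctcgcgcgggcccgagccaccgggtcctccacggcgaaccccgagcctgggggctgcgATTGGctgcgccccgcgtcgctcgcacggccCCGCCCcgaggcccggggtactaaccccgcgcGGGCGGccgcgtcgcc

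Among these sequences the proximal Runx3, Rhoa, Akt1 and Ctnnb1 promoters were the GC-rich ones, with 78.8%, 79.6%, 78.4% and 74.4% G and C against a median of 55.6% over 21262 promoters of the same length. They held 38, 33, 31 and 43 CpG pairs, against a median of 10. The distal Runx3 promoter had 65.2% G and C and 8 CpG pairs. GC boxes matched 4 times in the Akt1 sequence, with 1 overlap, 3 times in the proximal Runx3 sequence and 2 times each in those of Rhoa and Ctnnb1. A GC box occurred in 42.6% of all promoters. The distal Runx3 promoter held 1 RBPJ, 2 RUNX, 2 CCAAT and 1 E-box match, motifs found in 20.9%, 12.4%, 35.4% and 16.9% of all promoters. A match describes the letters only. Of the printed 250 bases, those of Rhoa overlapped an H3K27ac peak in all 8 libraries and those of Ctnnb1 in 6. Those of Akt1 did so only in NICD replicate 1. The Akt1 promoter peak of the other libraries, except flox/+, which had none, lay just inside the gene. The printed bases of the distal Runx3 promoter overlapped no peak of either mark. Those of the proximal Runx3 promoter overlapped H3K4me3 of NICD only.

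H3K27ac stood at the promoters of 7 of the 8 genes in every flox/flox, NICD and wild-type library, and of 3 and 5 of them in flox/+. Over all protein-coding genes, promoters were called for 44.4% and 42.7% in flox/flox, 17.2% and 27.1% in flox/+, 54.3% and 48.9% in NICD, with 44.8% and 42.6% in wild-type. The promoters of Rhoa, Apc and Smad4 were called in all 8 libraries, a state shared by 14.4% of all genes. Runx3 had no H3K27ac promoter peak in any library, as did 44.4% of all genes. Strength was read as a percentile, the percent of peaks in the same list with a lower −log10 p-value, or, in the unscored flox/flox lists, the place in the file. Peaks were ranked within each list, so percentiles of lists of unlike length are not on the same scale. The median percentile of the called promoters of the set was 76.4 and 56.6 in flox/flox, 9.35 and 68.2 in flox/+, 95.2 and 88.8 in NICD, with 81.3 and 81.0 in wild-type. Over all called genes it was 67.0 and 65.7 in flox/flox, 52.0 and 55.3 in flox/+, 84.0 and 75.8 in NICD, with 71.1 and 69.6 in wild-type.

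**Figure D1:**
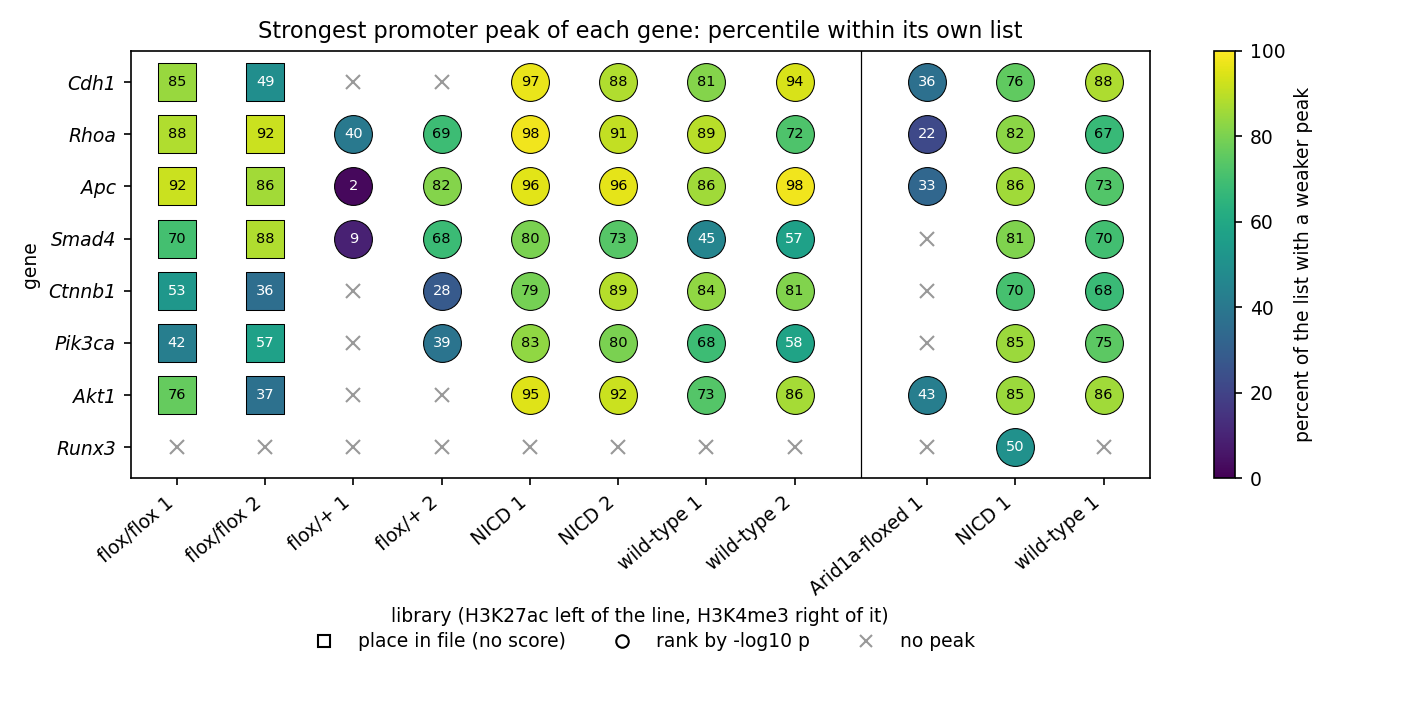
Percentile of the strongest own-promoter peak of each gene within its list, by library, for H3K27ac (left of the line) and H3K4me3 (right of it). Squares use the place in an unscored file, circles use the −log10 p-value and crosses mark no peak; the flox/+ columns hold the crosses of Cdh1 and Akt1, and Runx3 has 1 circle, in H3K4me3 of NICD.

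Cdh1 had H3K27ac peaks in every genotype but flox/+. Its window of 166.9 kb held 5 and 3 H3K27ac peaks in flox/flox, 0 and 0 in flox/+, 14 and 8 in NICD, with 5 and 6 in wild-type. Flox/+ was the lowest group and NICD the highest, and neither overlapped another group. The own promoter, chr8:106603409-106604654, just inside the gene, stood at percentile 84.7 and 49.1 in flox/flox, 96.8 and 88.1 in NICD, with 81.3 and 93.8 in wild-type, and was not called in flox/+. Both flox/+ lists also lacked the promoter peak of a neighbour at +79.94 kb, which all 6 other libraries had. Inside the gene, regions at +16.85 kb (chr8:106619931-106620471) and +43.55 kb (chr8:106646463-106647338) were called in flox/flox replicate 1 and in all NICD and wild-type libraries. A further 4 distal regions, at −39.46, −25.74 and −17.92 kb upstream and +37.49 kb inside the gene, were called in both NICD libraries and in no other.

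Ctnnb1 followed the same order of window counts, with 4 and 2 peaks in flox/flox, 0 and 1 in flox/+, 14 and 6 in NICD, with 3 and 3 in wild-type. NICD overlapped no other group, and flox/flox and wild-type overlapped each other. The promoter region chr9:120933470-120934821 was at percentile 53.1 and 35.6 in flox/flox, 79.1 and 88.8 in NICD, with 83.5 and 81.0 in wild-type. In flox/+ it was missing from replicate 1 and at percentile 27.8 in replicate 2. Upstream of the gene, a region at −32.45 kb (chr9:120900283-120901618) was called in flox/flox replicate 1 and both NICD libraries and in neither wild-type library. Another at −13.94 kb (chr9:120918694-120920233) was called in both flox/flox, both NICD and 1 wild-type library. The region at −6.05 kb appeared in both NICD libraries and wild-type replicate 2. Distal Ctnnb1 sites were called in no flox/+ library.

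**Figure D2:**
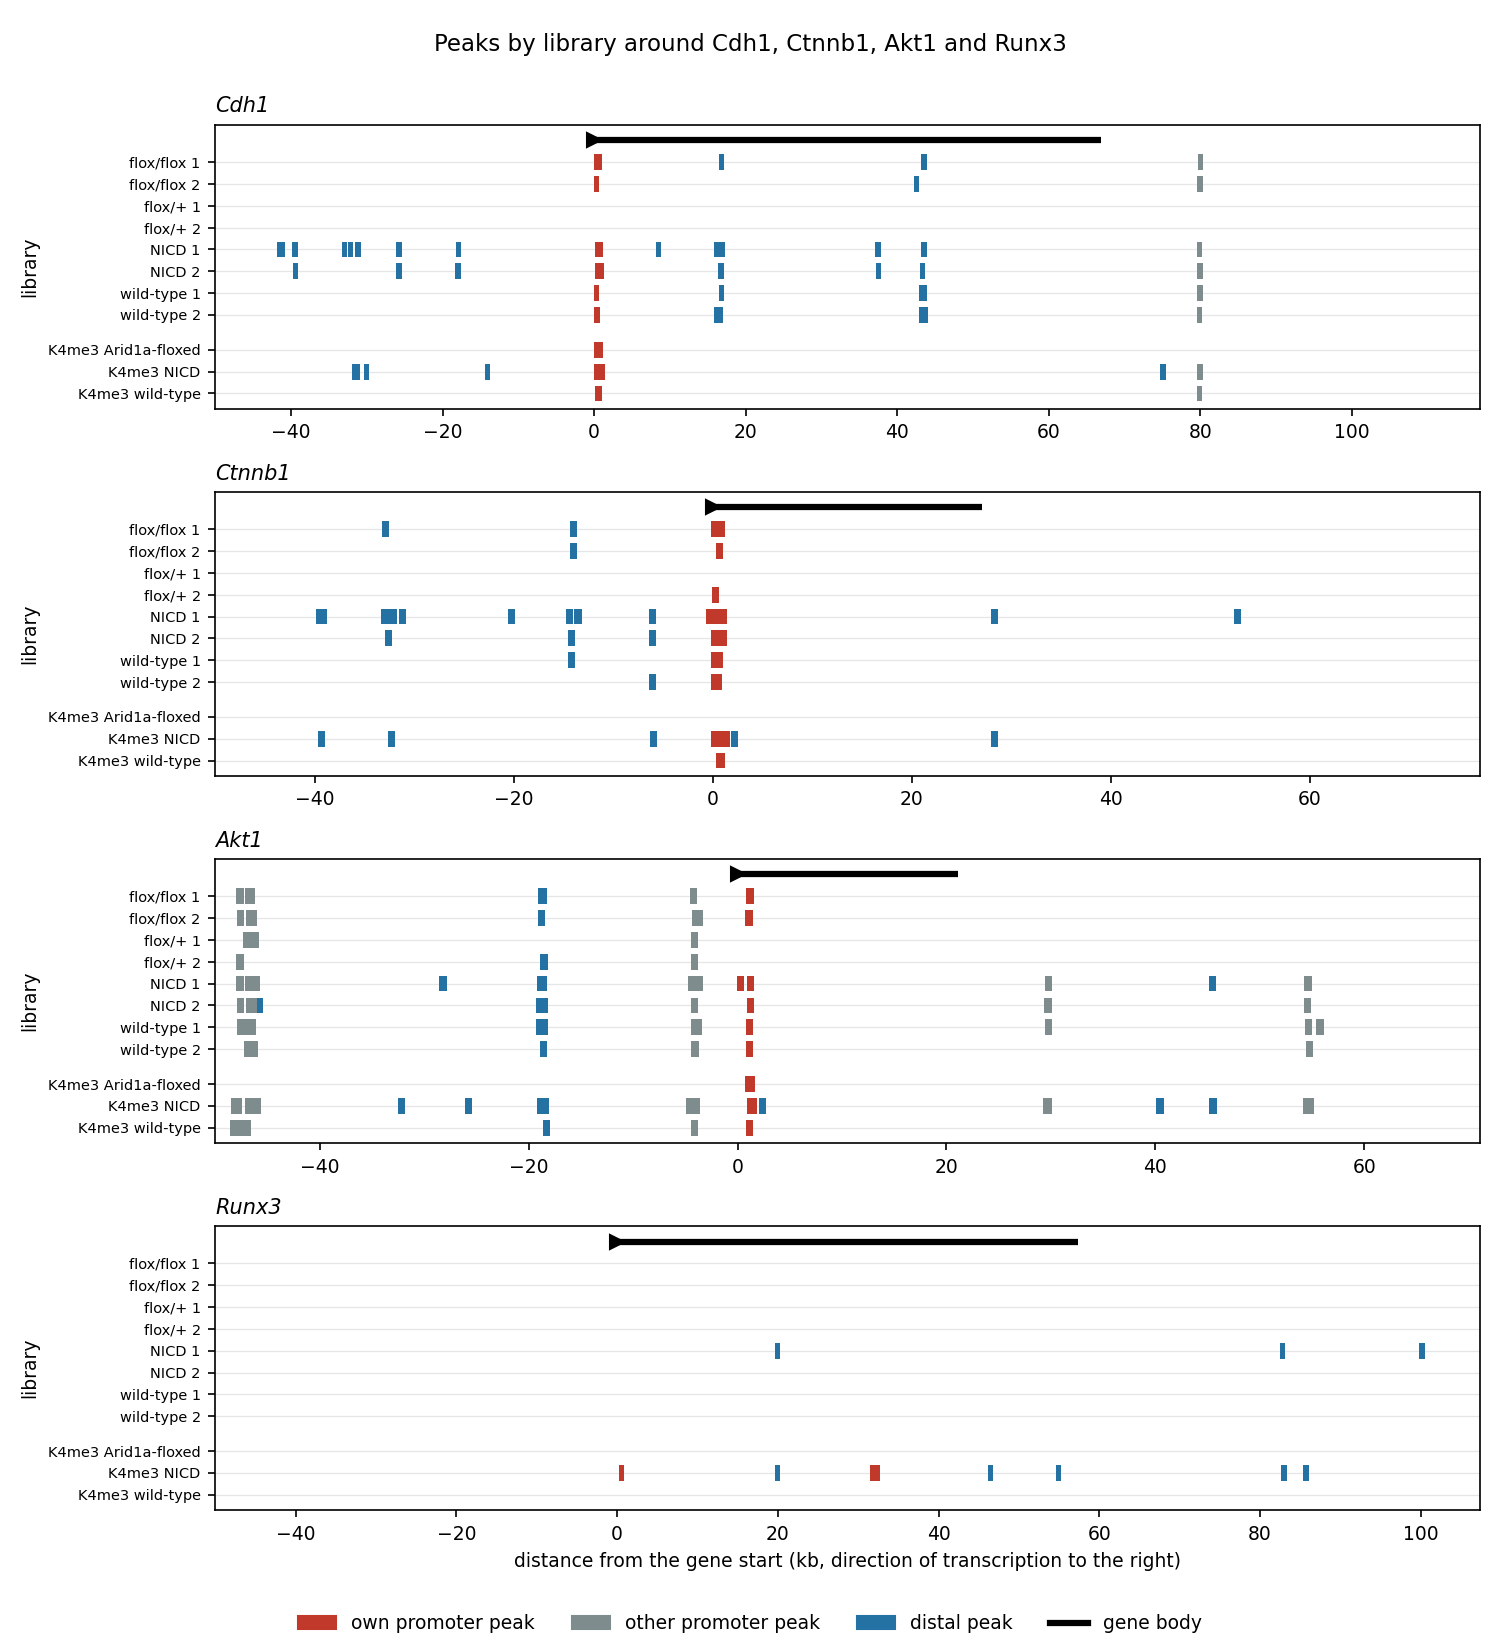
Peaks around Cdh1, Ctnnb1, Akt1 and Runx3 by library, placed by distance in kb from the outermost gene start; narrow peaks are widened to be visible and the black bar is the gene body. Distal peaks are densest in NICD replicate 1, the longest list, both flox/+ lists are empty across Cdh1, and the Runx3 promoter peaks belong to H3K4me3 of NICD.

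Rhoa lies among 6 other genes, and most of its window peaks were promoter peaks. The window held 7 and 7 peaks in flox/flox, 1 and 5 in flox/+, 13 and 12 in NICD, with 12 and 8 in wild-type. NICD reached the same count as wild-type replicate 1, and flox/+ lay below every other library. A merged region at the inner start, chr9:108306353-108306934, was called in all 8 libraries, and one before the outer start, chr9:108305428-108305973, in all but flox/+ replicate 1. In both wild-type and both flox/+ libraries the peak at the inner start ended before that start. The strongest promoter peak was at percentile 88.0 and 92.0 in flox/flox, 40.5 and 68.7 in flox/+, 97.8 and 90.8 in NICD, with 89.2 and 72.2 in wild-type. A distal region at −31.36 kb was called in both NICD and both wild-type libraries and in no flox/flox or flox/+ library.

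Apc differed little between genotypes. Its window held 3 and 2 peaks in flox/flox, 3 and 3 in flox/+, 9 and 3 in NICD, with 3 and 3 in wild-type, so NICD replicate 1 alone stood apart. The promoter region chr18:34220873-34222136 was called in all 8 H3K27ac and all 3 H3K4me3 libraries. Its strongest own-promoter peak stood at percentile 91.9 and 86.1 in flox/flox, 2.09 and 81.5 in flox/+, 95.6 and 96.0 in NICD, with 85.6 and 97.9 in wild-type. In flox/+ replicate 1 the region held another peak at percentile 15.9, classed distal because it began over 1 kb from the start. Flox/+ replicate 1 was the single low value, and its partner lay just below the values of the other groups. All 6 distal regions of Apc merged over the H3K27ac lists belonged to NICD replicate 1 alone.

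Smad4 had few peaks besides its promoter. The window held 2 and 2 in flox/flox, 1 and 2 in flox/+, 4 and 3 in NICD, with 3 and 3 in wild-type, and the floxed genotypes lay below the other libraries. The promoter region chr18:73702841-73704362 was called in all 8 libraries, at percentile 70.2 and 88.0 in flox/flox, 9.35 and 68.2 in flox/+, 80.0 and 73.5 in NICD, with 45.4 and 56.9 in wild-type. When every list was cut to its 5165 strongest peaks, the length of the shortest list, the order turned. The Smad4 promoter was then kept in both flox/flox and both flox/+ lists and dropped from both NICD and both wild-type lists. Flox/+ replicate 1 is that shortest list, so the cut could drop nothing from it and its call was fixed in advance. At that length, 0.845% of all genes were called in both flox/+ and neither NICD library, and 1.46% in both flox/flox and neither NICD library.

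For the kinase pair, Pik3ca differed little and Akt1 more. The Pik3ca window held 4 and 5 peaks in flox/flox, 1 and 4 in flox/+, 5 and 5 in NICD, with 5 and 5 in wild-type, with no distal region in any H3K27ac library. Its promoter region chr3:32396064-32397990 was missing only from flox/+ replicate 1. The percentile was 42.2 and 56.6 in flox/flox, 38.6 in flox/+ replicate 2, 83.4 and 79.7 in NICD, with 68.5 and 58.2 in wild-type. Both NICD percentiles lay above all others, but a percentile depends on list length. With every list cut to 5165 peaks, the Pik3ca promoter was kept in NICD replicate 2 and flox/+ replicate 2 alone. The Akt1 window held 5 and 6 peaks in flox/flox, 3 and 3 in flox/+, 11 and 9 in NICD, with 11 and 6 in wild-type. Flox/+ lay below every other library there, and NICD overlapped wild-type. The Akt1 promoter region chr12:112673297-112674018 was at percentile 76.4 and 37.0 in flox/flox, 95.2 and 92.1 in NICD, with 73.3 and 86.4 in wild-type, and was not called in flox/+. The promoter of a neighbour at −4.28 kb from the outer Akt1 start was called in all 8 libraries, flox/+ included. A distal region at −18.73 kb (chr12:112693137-112694095) was called in all but flox/+ replicate 1.

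**Figure D3:**
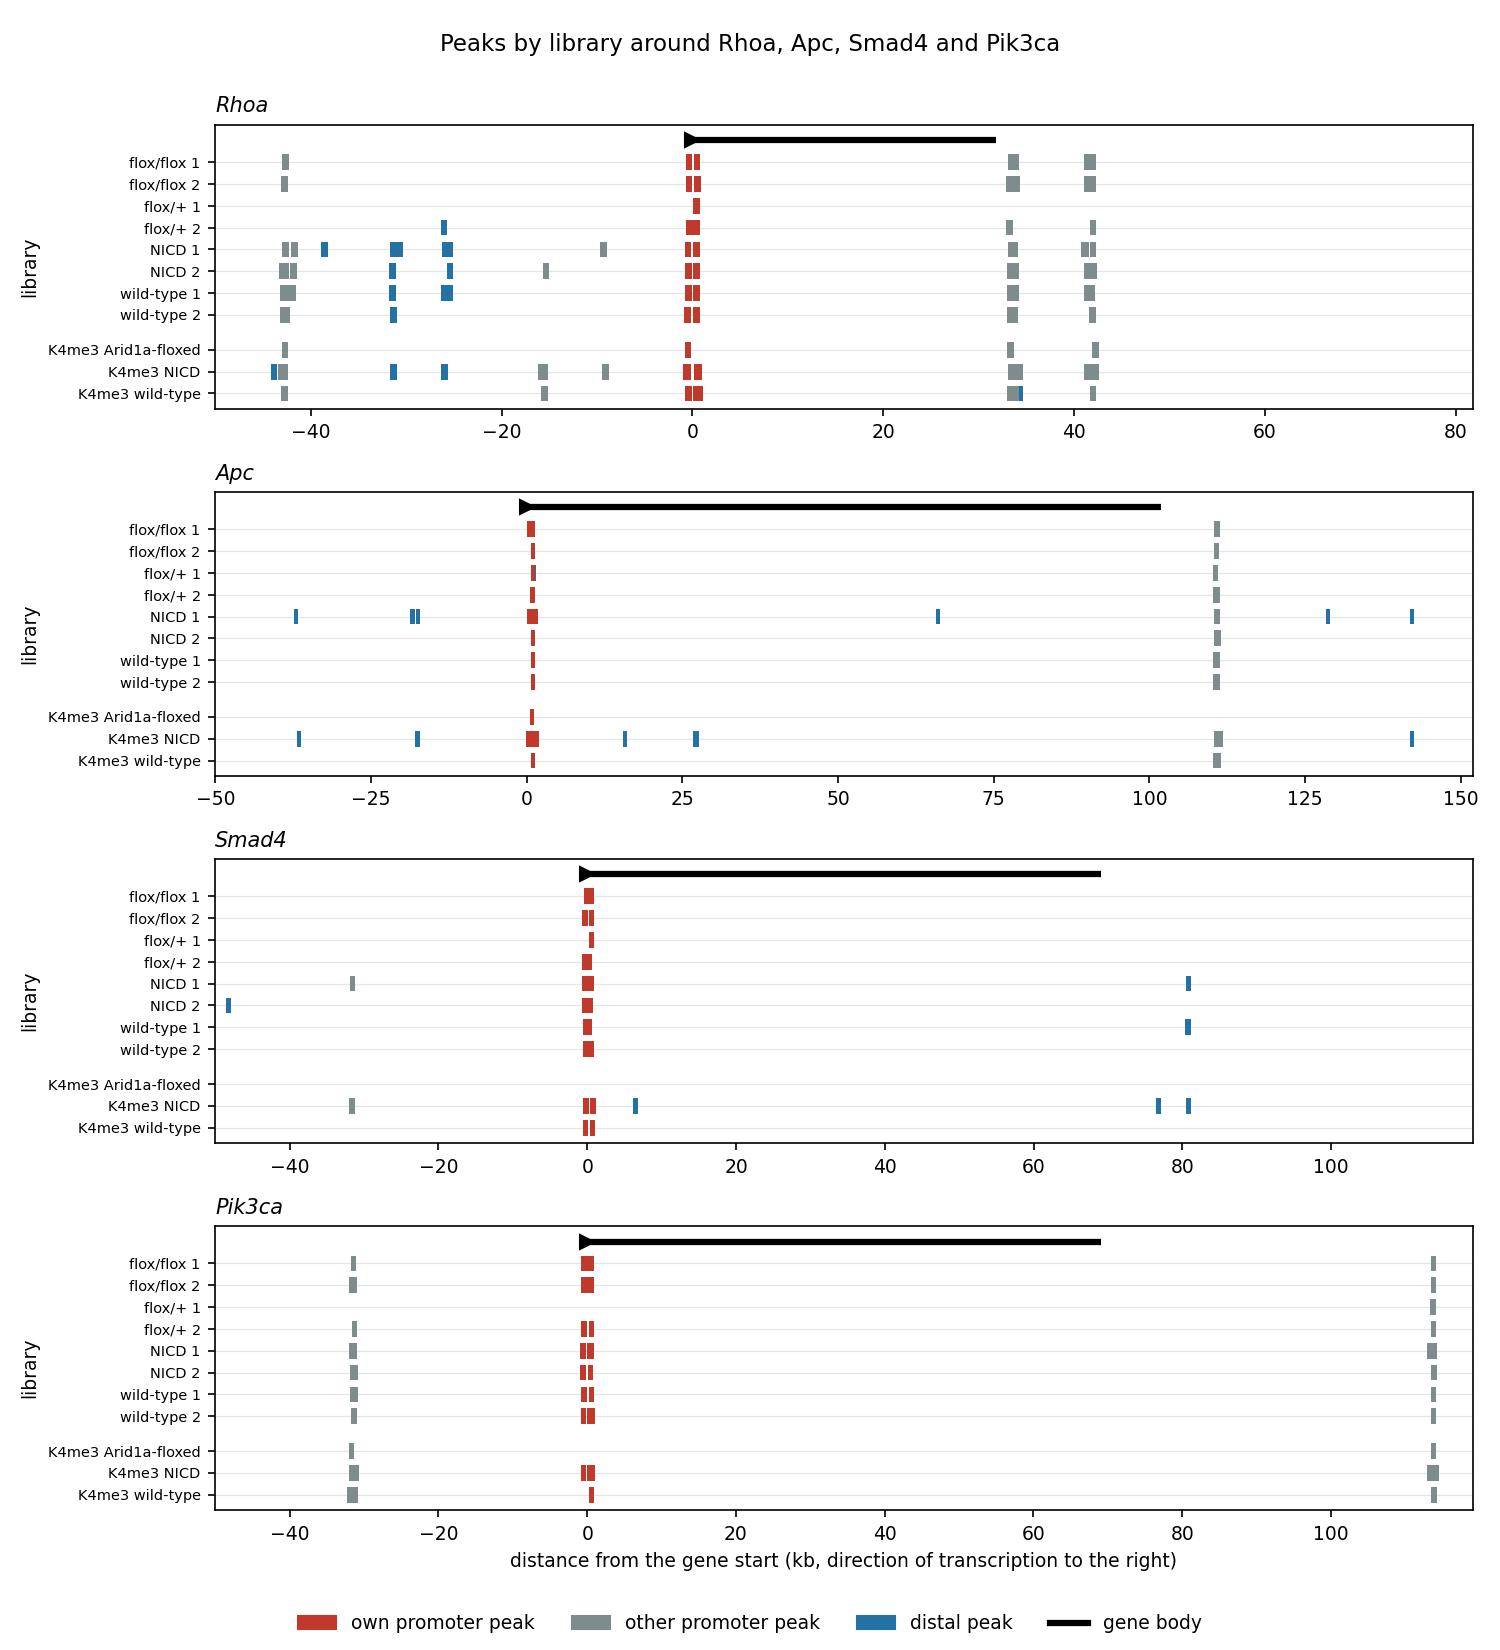
Peaks around Rhoa, Apc, Smad4 and Pik3ca by library, drawn as for the other genes (distance in kb from the outermost gene start, black bar for the gene body). The promoters of Rhoa, Apc and Smad4 carry a peak in all 8 H3K27ac libraries, and that of Pik3ca lacks one in flox/+ replicate 1.

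Runx3 stood apart from the other genes in having H3K4me3 at its starts with no H3K27ac. In H3K27ac its window held 0 and 0 peaks in flox/flox, 0 and 0 in flox/+, 3 and 0 in NICD, with 0 and 0 in wild-type. The 3 peaks, at +19.96, +82.79 and +100.18 kb from the distal start, were in the longest list alone. H3K4me3 gave 0 window peaks in the Arid1a-floxed library, 8 in NICD, with 0 in wild-type. At the proximal start the NICD library had H3K4me3 at chr4:135152297-135152599 and chr4:135152685-135153420, the stronger at percentile 50.2, and at the distal start at chr4:135121116-135121301, at percentile 1.02. H3K4me3 in NICD with no H3K27ac promoter peak in any library was found at 10.4% of all genes. Leukocytes express Runx3 too, and leukocyte promoters with H3K4me3 numbered 0 of 8 in the Arid1a-floxed library, 4 of 8 in NICD, with 1 of 8 in wild-type, beside 20.7%, 65.3% and 49.9% of all genes. Fibroblast promoters numbered 0 of 5 in the Arid1a-floxed library, 3 of 5 in NICD, with 0 of 5 in wild-type, and muscle promoters 0 of 4 in the Arid1a-floxed library, 3 of 4 in NICD, with 0 of 4 in wild-type. In the same order, pit promoters numbered 0, 4 and 0 of 4 and chief promoters 0, 3 and 0 of 3. Epithelial promoters numbered 1, 7 and 5 of 7, parietal promoters 1, 2 and 1 of 5, and endothelial promoters 0, 1 and 0 of 4. The NICD list was the longest of the H3K4me3 lists. The part of any of these cell types in the Runx3 peaks was not tested.

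The first comparison, NICD against wild-type, concerns Notch activation. No promoter separated the genotypes: 0 of 8 were called in both NICD libraries and absent from both wild-type libraries, a pattern seen at 3.8% of all genes, and 0 the other way round (0.128% of all genes). Window counts of Cdh1 and Ctnnb1 were higher in both NICD libraries than in both wild-type libraries, as were those of 31% of all genes, and none was lower (1.23%). Merged over the H3K27ac lists, the 8 windows held 72 regions, and 5 of them, all distal, 4 at Cdh1 and 1 at Ctnnb1, were in both NICD lists and absent from both wild-type lists. Across the genome 12.9% of 45844 regions behaved so, and 0.541% went the other way, against 0 of the 72. So neither count of the set exceeds the share of all genes or regions. Without NICD replicate 2 the windows higher in NICD numbered 6 and the regions 35, and without wild-type replicate 1 they numbered 4 and 11. Leaving a library out loosens the rule, so such counts cannot fall. With the 4 lists cut to 18360 peaks, the Ctnnb1 window alone stayed higher in NICD, 2 regions were left and the Smad4 window was lower in NICD. No share over all genes was computed at that length.

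Flox/+ against NICD asks what 1 floxed Arid1a allele changed on the Notch background. The promoters of Cdh1 and Akt1 were called in both NICD and neither flox/+ library, as were 19.1% of all promoters, and 0 were gained (0.00457%). Window counts were lower in flox/+ for Cdh1, Rhoa, Smad4, Ctnnb1, Pik3ca and Akt1, 6 of 8, beside 63.4% of all genes, and higher for 0 (0.0503%). Of the 72 regions, 19 were in both NICD lists and in neither flox/+ list, 8 at Cdh1, 5 at Rhoa, 3 at Ctnnb1 and 3 at Akt1. They comprised 2 own promoters, 6 promoters of neighbours and 11 distal regions, beside 29.1% of regions genome-wide, and 0 regions went the other way (0.072%). The shorter flox/+ lists move with these counts. With lists of 5165 peaks, the Cdh1 and Akt1 promoters were still called in both NICD and neither flox/+ library, a pattern then seen at 2.33% of all genes. The Cdh1 window alone was still lower in flox/+, beside 6.69% of all genes, and the Apc and Smad4 windows were higher, beside 2.92%. Of the regions, 2 were lost and 1 was gained, with no genome-wide share computed at that length. This cut removed nothing from flox/+ replicate 1, the shortest list. Without flox/+ replicate 2 the lost promoters numbered 4, and without NICD replicate 2 the lost regions numbered 52. Such counts cannot fall when a library is left out.

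**Figure D4:**
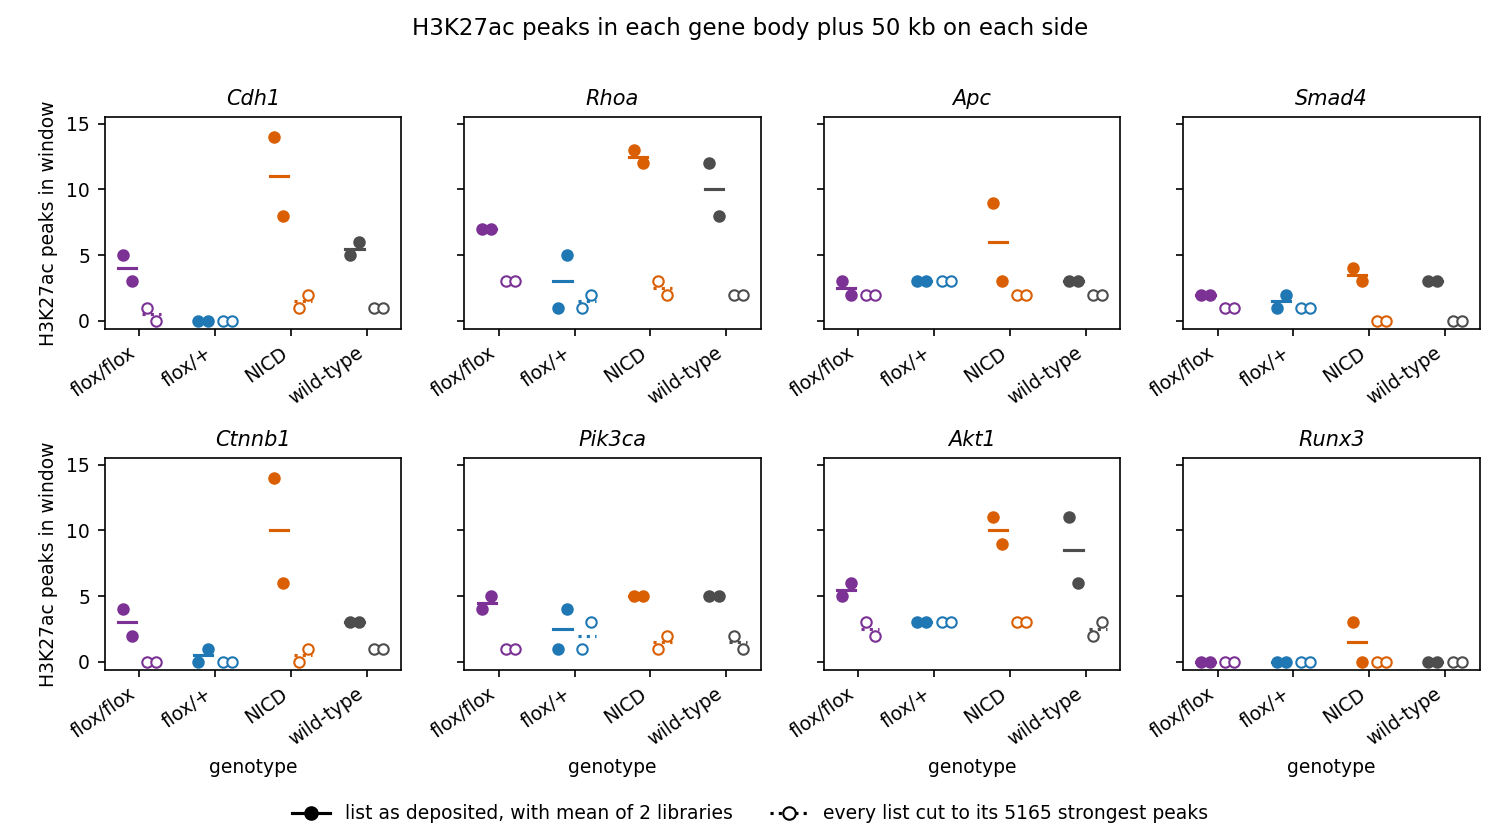
H3K27ac peaks in the window of each gene by genotype, with 1 point per library and a bar at the mean of 2. Filled points use the lists as deposited, where NICD is highest at Cdh1 and Ctnnb1, and open points use lists cut to their 5165 strongest peaks, where counts run from 0 to 3.

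Flox/flox against NICD sets both alleles floxed beside none, and shares the NICD libraries with the comparison before it. The flox/flox lists hold positions only and their peak calling is not described, unlike the MACS lists of the other groups. Genotype and the making of the lists therefore cannot be told apart here. No promoter of the set was lost (0 of 8, beside 3.71% of all genes) or gained (0 of 8, beside 0.0228%). Windows with fewer peaks in flox/flox were those of Cdh1, Rhoa, Smad4, Ctnnb1 and Akt1, 5 of 8, beside 43.8% of all genes, and none had more (0.242%). Among the 72 regions, 10 were in both NICD lists and in neither flox/flox list, 4 at Cdh1, 3 at Rhoa, 2 at Akt1 and 1 at Ctnnb1, beside 15.4% genome-wide. They were 7 distal regions and 3 promoters of neighbours, and 0 went the other way (0.0873%). Flox/flox lists were shorter than NICD lists. With the 4 lists cut to 14373 peaks no window was lower in flox/flox, no region was lost and the Rhoa window was higher. No share over all genes was computed at that length. Without NICD replicate 2 the lost regions numbered 42, a count that cannot fall when a library is left out.

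Flox/flox against flox/+ compares both alleles floxed with 1, and here too genotype and the making of the lists cannot be told apart. The Cdh1 and Akt1 promoters were called in both flox/flox and neither flox/+ library, as were 12.2% of all promoters, and 0 went the other way (0.0366%). Windows of Cdh1, Rhoa, Ctnnb1 and Akt1 held more peaks in flox/flox, 4 of 8 beside 41.2% of all genes, and 0 held fewer (0.356%). Of the 72 regions, 6 were in both flox/flox and neither flox/+ library, 2 each at Cdh1 and Rhoa and 1 each at Ctnnb1 and Akt1, beside 9.15% genome-wide, and 0 were the reverse (0.369%). With lists of 5165 peaks neither promoter separated the genotypes, beside 2.81% of all genes called in flox/flox alone, and no region did. The Rhoa window was the one still higher in flox/flox, beside 6.53% of all genes, and the Apc window was lower, beside 3.13%. Without flox/+ replicate 2 the promoters numbered 4 and the regions 14, and without flox/flox replicate 2 the regions numbered 10. These counts, too, cannot fall when a library is left out.

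A single exact permutation test of each window count over the 4 genotypes used all 105 ways to pair the 8 libraries, where p cannot go below 0.00952. Cdh1 and Rhoa gave an unadjusted exact permutation p of 0.0190 each and Ctnnb1 0.0286. All 3 had an adjusted p of 0.122 by Benjamini-Hochberg over the 17447 genes whose window count varied between libraries. Smad4 followed at 0.0857 (adjusted 0.192), Akt1 at 0.105 (0.229), Pik3ca at 0.286 (0.385), Apc at 0.857 (0.955) and Runx3 at 1 (1). No gene passed an adjusted p of 0.05 (0%), and 4974 genes, 28.5%, had an unadjusted permutation p under 0.05. The 3 genes under 0.05 became 0 with lists of 5165 peaks, 0 without flox/+ replicate 1, 1 without flox/flox replicate 1 and 0 without flox/flox replicate 2. The smallest exact permutation p that 2 libraries against 2 can give is 0.333, so single pairs of genotypes were not tested.

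H3K4me3 has 1 library per genotype and no test. Promoters of the set with an H3K4me3 peak numbered 4 in the Arid1a-floxed library, 8 in NICD, with 7 in wild-type, beside 20.7%, 65.3% and 49.9% of all genes. Runx3 was the gene called in NICD and not in wild-type, as were 15.4% of all genes, and 0 members went the other way (0.0457%). Smad4, Ctnnb1, Pik3ca and Runx3 were called in NICD and not in the Arid1a-floxed library, as were 44.5% of all genes. Cdh1 and Akt1, whose H3K27ac promoter peaks were missing in flox/+ and called in both flox/flox libraries, had H3K4me3 there in the Arid1a-floxed library. Whether that library matches flox/+ or flox/flox is unknown, so the marks cannot be set side by side by genotype. The Cdh1 start was itself set by H3K4me3. The H3K4me3 peak at the Cdh1 promoter stood at percentile 36.5 in the Arid1a-floxed library, 75.6 in NICD, with 87.8 in wild-type. That of Akt1 stood at 42.5, 84.8 and 85.7 in the same order. Lists held 5175 peaks in Arid1a-floxed, 39420 in NICD, with 17558 in wild-type, and list length and genotype cannot be told apart here either.

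Partners of the 8 genes in their pathways were counted from lists of names, every one of which was matched. Of 10 genes of the adherens junction, to which Cdh1 and Ctnnb1 belong, 6 and 7 had an H3K27ac promoter peak in flox/flox, 5 and 4 in flox/+, 8 and 8 in NICD, with 7 and 7 in wild-type. Jup, which encodes the β-catenin relative plakoglobin, was called in both flox/flox, both NICD and both wild-type libraries and in neither flox/+ library. It stood at percentile 74.0 and 49.4 in flox/flox and 80.9 and 88.6 in NICD. Nectin1, another junction protein, was called in both NICD libraries alone, at percentile 5.83 and 12.6. Both NICD and neither flox/+ library had Jup and Nectin1, 2 of 10 beside 19.1% of all promoters. Both flox/flox and neither flox/+ library had Jup, 1 of 10 beside 12.2%. For Nectin1, 1 of 10 stood beside 3.8% for NICD over wild-type and 3.71% for NICD over flox/flox.

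The Wnt list, with kinases and scaffolds of the Apc complex, transcription factors that bind β-catenin and receptor regulators, had the lowest share of called promoters in flox/+ among the 5 lists. Of its 13 promoters, 8 and 9 were called in flox/flox, 2 and 4 in flox/+, 10 and 10 in NICD, with 8 and 8 in wild-type. Both NICD and neither flox/+ library had 6 of them, beside 19.1% of all promoters. The 4 with the highest percentiles were Znrf3 and Rnf43, ubiquitin ligases that remove Wnt receptors, the kinase gene Gsk3a, and Tcf7l2 of the TCF family. Znrf3 stood at percentile 93.8 and 74.0 in NICD and Gsk3a at 83.8 and 73.4. Both flox/flox and neither flox/+ library had Gsk3a, Znrf3, Tcf7l2 and the TCF gene Tcf7, 4 of the 13, beside 12.2% of all promoters. Tcf7l1 was called in both NICD and neither flox/flox library, 1 of 13 beside 3.71%. Csnk1a1, a casein kinase of the Apc complex, was called in both NICD libraries and absent from wild-type, 1 of 13 beside 3.8%.

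The TGF-β and PI3K lists, like the adherens junction and Runx lists, were called at higher shares than all genes in every H3K27ac library. The Wnt list fell below that share in flox/+ replicate 1 alone. Of 15 TGF-β and BMP genes, 14 and 13 were called in flox/flox, 9 and 11 in flox/+, 15 and 15 in NICD, with 14 and 15 in wild-type. Ski, Smad7 and Smad3 were called in both NICD and neither flox/+ library, 3 of 15 beside 19.1% of all promoters; Ski and Smad7 restrain the pathway that Smad3 transmits. Ski stood at percentile 96.3 and 94.8 in NICD. Of 14 PI3K and Akt genes, 12 and 12 were called in flox/flox, 8 and 9 in flox/+, 13 and 12 in NICD, with 11 and 11 in wild-type. Tsc1, Tsc2 and Mtor were called in both flox/flox and both NICD libraries and in neither flox/+ library, 3 of 14 beside 12.2% and 19.1% of all promoters for the flox/flox and NICD comparisons; Tsc1 and Tsc2 form the complex that holds mTOR in check. Of 4 Runx genes other than Runx3, Runx1 and its partner Cbfb were called in all 8 libraries.

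**Figure D5:**
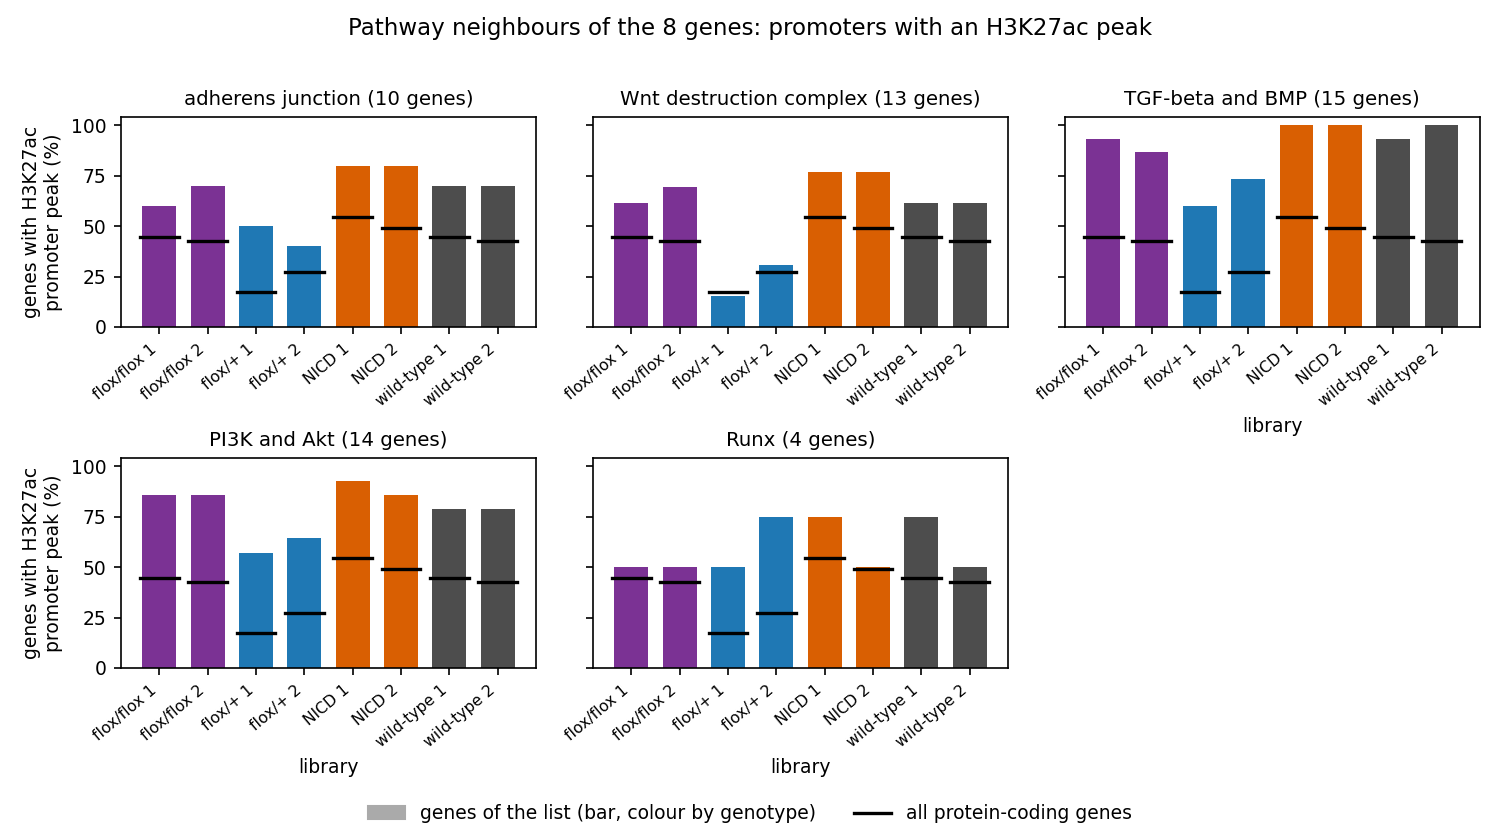
Share of each pathway list with an H3K27ac promoter peak, by library, with the share of all protein-coding genes as a black line. The Wnt bars in flox/+ stand for 2 and 4 of 13 genes, near the lines at 17.2% and 27.1%, while the other groups stand at 8 to 10 of 13.

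Genes on other chromosomes whose promoter percentiles over the 9 scored libraries came nearest to a member called in at least 4 of them, which leaves out Runx3, were named by the mean absolute difference, counting an uncalled promoter as 0. Akt1 was the gene nearest to Cdh1, at 4.27 percentile points, before Mtg1 and Ndufs1. Med13, a Mediator subunit gene, was nearest to Rhoa at 4.01, before Fnbp1l and Fcho2. Apc had Epb41l5 at 3.78, then Cmtm4 and Tmem260, and Smad4 had Mcur1 at 4.37, then Zfp740 and Ralgps1. Slc35d2 was nearest to Ctnnb1 at 3.14, and Msi2 stood at 3.93. Mrpl46 and Mrps11, which share a value, were nearest to Pik3ca at 2.28, before Ncstn, and Mink1 was nearest to Akt1 at 3.33, before Ndufs1 and Eef1b2. All of these values come from the same 9 lists and share their lengths.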

How the data were processed

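Peak lists of 11 ChIP-seq libraries were used, 8 of H3K27ac and 3 of H3K4me3. Bowtie2, MACS2 and the build GRCm38 (mm10) are named in the submitters' processing notes. MACS 2.0.10.20131216 made 9 of the lists per the file headers, from single libraries without a control. The headers give 1 tag kept per position, a q-value threshold of 0.05, local background up to 10 kb and the human genome size of 2.7 Gb. For each peak these deposited lists give a pileup signal at the summit, −log10 of the p-value and q-value, and a fold enrichment ratio over the local background. These scores are the authors' and ranked or filtered peaks within a list and did nothing else. The deposited flox/flox lists hold positions only, and their peak calling is not described in the labels. Their file order ran with strength: of the first 1536 and 1437 regions 99.7% and 99.6% overlapped a peak of wild-type replicate 2, and of as many at the end 39.8% and 40.2%. Against NICD replicate 1 the shares were 99.9% and 99.9%, and 90.2% and 90.5%. No reads per peak are given, so intervals for single peaks could not be had.

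Genotype labels set the groups. Gene positions came from a RefSeq table of GRCm38. Starts came from RefSeq promoters for 17491 genes, from the gene end with H3K4me3 for 2578 (Cdh1, Apc and Smad4 among them) and from both ends for 1814. For those 3 members the H3K4me3 at the promoter is therefore part of how the start was set. Regions were shared with an overlap of at least 1 base. A gene or region separated genotypes when both lists of one and no list of the other held it, and a window when the counts of the genotypes did not overlap. The members and lists were chosen with earlier results of these data known. Named beside the members are at most 4 genes of a pathway list per comparison, by percentile, and the 3 genes nearest to each member called in at least 4 scored libraries, which leaves out Runx3. A pathway list and 1 gene are not reported here, so Ctnnb1 has 2 such genes and the PI3K list was counted without that gene. Counts were set beside the same share over all 21883 genes or 45844 regions. The code was checked on simulated data. Python 3.11.15, numpy 2.4.6, pandas 2.3.3 and scipy 1.17.1 were used. Same-numbered replicates did not deviate together, with correlations of −0.032 to 0.10 over the regions, so the numbers were not treated as pairs.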

Additional observations from a re-analysis of the deposited data

How the results depend on the processing

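List length moved most counts. A cut to 5165 peaks leaves flox/+ replicate 1, the shortest list, whole. Percents that follow are shares of all genes at that length, and none was computed for regions. With every list cut to 5165 peaks, the members' windows higher in NICD than wild-type became 0 (5.51%) and the regions 0. For NICD over flox/+ the promoters stayed at 2 (2.33%), windows became 1 (6.69%) and regions 2. The other way there were 1 promoter (0.845%), 2 windows (2.92%) and 1 region. For NICD over flox/flox windows (3.91%) and regions became 0, with 1 promoter (1.46%), 1 window (3.83%) and 2 regions the other way. For flox/flox over flox/+ the counts became 0 promoters (2.81%), 1 window (6.53%) and 0 regions, with 1 window (3.13%) the other way. The unadjusted permutation count became 0. An alternative chosen after seeing the data cut only the 4 lists compared, to the shortest of them. It gave 1 window and 2 regions for NICD over wild-type with 1 window the other way, and 0 and 0 for NICD over flox/flox with 1 window the other way; both flox/+ comparisons are as above, their shortest list being the same. Where the groups had not overlapped, differences of mean window peaks that turned under the 5165 limit were −0.5 for Ctnnb1 (NICD minus wild-type), 1 for Smad4 and 0.5 for Pik3ca (flox/+ minus NICD), 0.5 for Rhoa and 1 for Smad4 (flox/flox minus NICD), and −0.5 for Akt1 (flox/flox minus flox/+). With 4 lists cut, they were 1 for Smad4 and 0.5 for Pik3ca (flox/+ minus NICD), 1 for Rhoa (flox/flox minus NICD) and −0.5 for Akt1 (flox/flox minus flox/+). Where the groups had overlapped, Apc (1, flox/+ minus NICD) and Pik3ca (−1, flox/flox minus flox/+) turned under both limits. With 4 lists cut, Rhoa (−2), Smad4 (−1) and Akt1 (−1) in NICD minus wild-type and Pik3ca (0.5) in flox/flox minus NICD turned as well. The cause was not tested beyond the construction of these limits.

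A flank of 20 kb gave 1 window for NICD over wild-type and 3 for NICD over flox/flox, and 100 kb gave 4 for NICD over wild-type. Covered bases gave 7 windows for NICD over wild-type and 7 for flox/flox over flox/+. Whole lists covered 7.31 and 6.84 Mb in flox/flox, 1.44 and 2.83 Mb in flox/+, 20.1 and 10.4 Mb in NICD, with 6.01 and 5.93 Mb in wild-type. No share over all genes was computed for covered bases or for the other flanks, so these counts say nothing particular to the set. A −log10 q-value of at least 5 gave 1 window and 3 regions for NICD over flox/flox and 10 regions for flox/flox over flox/+. The flox/flox lists hold no scores and stayed whole, so the filter thinned the other group alone and fixed the direction of both shifts. Ranking by fold enrichment put the median promoter percentile at 75.24 in NICD and 59.24 in wild-type, against 91.96 and 81.17, and ranking by pileup at 96.7 and 86.04. Other promoter widths, either gene end as a start and a 50% overlap moved no count by over 1.5 times.

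Leaving out 1 library at a time loosens the rule of separation, so promoter, window and region counts can stay or rise but not fall. It gave 2 to 6 windows and 6 to 35 regions for NICD over wild-type, with 0 to 1 regions the other way. For NICD over flox/+ it gave 2 to 4 promoters, 6 to 8 windows and 20 to 52 regions. For NICD over flox/flox it gave 5 to 7 windows and 10 to 42 regions, with 0 to 1 regions the other way. For flox/flox over flox/+ it gave 2 to 4 promoters, 4 to 6 windows and 7 to 14 regions, with 0 to 1 windows and 0 to 1 regions the other way. Members with an unadjusted permutation p under 0.05 ran from 0 to 3.

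With the replicate number as a block, windows became 3 for NICD over wild-type, 6 for NICD over flox/flox and 5 for flox/flox over flox/+. They stayed at 6 for NICD over flox/+. The block compares same-numbered libraries only, a looser rule under which window counts cannot fall. The members with an unadjusted permutation p under 0.05 became 1 and 0 passed adjustment, where the smallest p was 0.0417. The numbers do not pair the samples. Scored H3K27ac lists rest on 7.96 M to 18.3 M tags. Leaving out the shallowest, NICD replicate 2, gave the highest region counts of the 3 comparisons with NICD, though leaving out any library cannot lower them.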
